A study of Homo sapiens with 12 samples.

Results

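The 77 genes described here encode the proteins of the cytosolic ribosome, 46 of the large subunit and 31 of the small subunit. They were taken from a table of 58233 genes as the protein-coding rows whose symbol was RPL or RPS followed by a number and at most an A or X, together with RPLP0, RPLP1, RPLP2 and RPSA. All 77 were among the 16657 genes with enough reads to be tested. The rule used symbols and no measured values, but it was set with earlier results of these data known. Ribosomal protein genes under other symbols, such as FAU, were outside the rule and are described with the related gene lists.

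RNA was sequenced from HCT116 cells, a human colorectal carcinoma line, in 4 groups of 3 libraries. The parental line (HCT116 Tet-OsTIR1) carries at the AAVS1 locus a doxycycline-inducible transgene for the rice F-box protein OsTIR1. The SDS22-degron line, labelled HCT116 Tet-OsTIR1 SDS22 WT, carries the same transgene, and its PPP1R7 alleles, which encode the PP1 regulator SDS22, are tagged with a miniature auxin-inducible degron and mClover. It was grown from 1 selected colony, so a difference between the lines cannot be told apart from a difference of that colony. Each line was untreated or received 2 µg/ml doxycycline (Dox) plus 500 µM of the auxin IAA for 48 h, which induces OsTIR1 in both lines and degrades the tagged SDS22 in the degron line. The depletion acts on the protein, so PPP1R7 mRNA is no check of it. PPP1R7 had 44.2, 50.01 and 42.1 CPM (counts scaled to a common library depth) in treated parental cells and 48.1, 44.4 and 51.1 CPM in treated SDS22-degron cells (adjusted p = 0.513, edgeR's quasi-likelihood test). Between 12133915 and 14657508 reads per library fell on genes. The epithelial markers EPCAM, KRT8, KRT18, KRT19 and CDH1 were present. Of the intestinal markers, CDX2 had 20.5 to 34.9 CPM, CDX1 was at 0 and VIL1 at most 0.153 CPM. The 4 leukocyte markers summed to at most 0.158 CPM in any library. The 8 epithelial markers summed to 2655 to 3136 CPM in treated parental cells and to 3319 to 4218 CPM in the other groups. The 3 fibroblast markers, with COL1A2 and DCN at 0, summed to 9.88 to 15.7 CPM in untreated and 17.2 to 31.7 CPM in treated libraries. The 3 endothelial markers, with CDH5 at 0, summed to 1.07 to 1.73 CPM in treated SDS22-degron cells and to 0.237 to 0.802 CPM elsewhere. The part of these markers in the results was not tested.

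Ribosomal proteins are made in near-equal numbers, because each ribosome holds a single copy of nearly all of them. Their mRNAs belong to the TOP class, which starts with a cytosine and an unbroken stretch of pyrimidines at the 5′ end. This stretch is bound by LARP1 and lets growth signals through mTOR tune the translation and the stability of the whole class together.

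The start sites show this shared feature, which the choice of genes did not use. In RefSeq (GRCh38.p14), 62 of the 77 genes were matched by symbol. The 15 others included RPL23, RPL23A, RPL30, RPL37, RPL5, RPL7, RPL8, RPS15A, RPS2 and RPS20. Of the matched genes, 46 had, at an annotated start on the transcribed strand, a C that opened a run of at least 5 C or T. This is 74.2% of the matched genes, against 5.14% of all 27305 genes in the RefSeq table. The median run among them was 8 bases and the longest 19. The sequences below are 30 bases around the annotated start, 5′ to 3′ on the transcribed strand. They were picked because these genes recur in the comparisons. Capitals mark the run, and the first capital is the annotated first base of the transcript. RPL9 and RPS4X are shown as ribosomal protein genes whose annotated start had no such run. EEF2, which encodes the translocase of elongation and lies outside the 77, is shown for comparison.
RPL13A, chr19:49487593-49487622, plus strand: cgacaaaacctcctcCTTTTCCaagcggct
RPS19, chr19:41860240-41860269, plus strand: ggaaaccccgtcgttCCCTTTCCCCTggct
RPS12, chr6:132814554-132814583, plus strand: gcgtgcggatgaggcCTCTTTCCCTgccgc
RPL14, chr3:40457324-40457353, plus strand: gggcgggtcttcttcCTTCTCgcctaacgc
RPL7A, chr9:133348203-133348232, plus strand: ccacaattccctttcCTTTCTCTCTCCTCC
RPL35, chr9:124861943-124861972, minus strand: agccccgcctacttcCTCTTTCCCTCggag
RPL24, chr3:101686704-101686733, minus strand: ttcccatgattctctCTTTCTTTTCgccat
RPL9, chr4:39458908-39458937, minus strand: gtacgtaatgacgacagacgttctttcttt
RPS4X, chrX:72277234-72277263, minus strand: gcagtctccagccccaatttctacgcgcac
EEF2, chr19:3985449-3985478, minus strand: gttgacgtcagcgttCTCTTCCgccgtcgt

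Together the 77 genes took up 2.25% to 3.38% of the reads of a library. On the TMM-normalized scale they summed to 34183, 29515 and 33713 CPM in the 3 untreated parental libraries, and to 27026, 21935 and 24411 CPM in the treated parental libraries. The corresponding sums were 33602, 32701 and 34340 CPM in untreated SDS22-degron cells and 31837, 31560 and 28298 CPM in treated SDS22-degron cells. The treated parental libraries thus lay below all 9 others. The mean fell from 32470 ± 2570 to 24458 ± 2546 CPM (SD, n = 3) in parental cells, to 75.3% of the untreated level. In SDS22-degron cells it went from 33548 ± 821 to 30565 ± 1968 CPM, 91.1% of the untreated level. No p is given for such a sum. CPM are shares of the counted reads, so a lower value cannot be told apart from a rise of other messages, and in bulk RNA fewer cells of a type cannot be told apart from less RNA per cell.

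**Figure D1:**
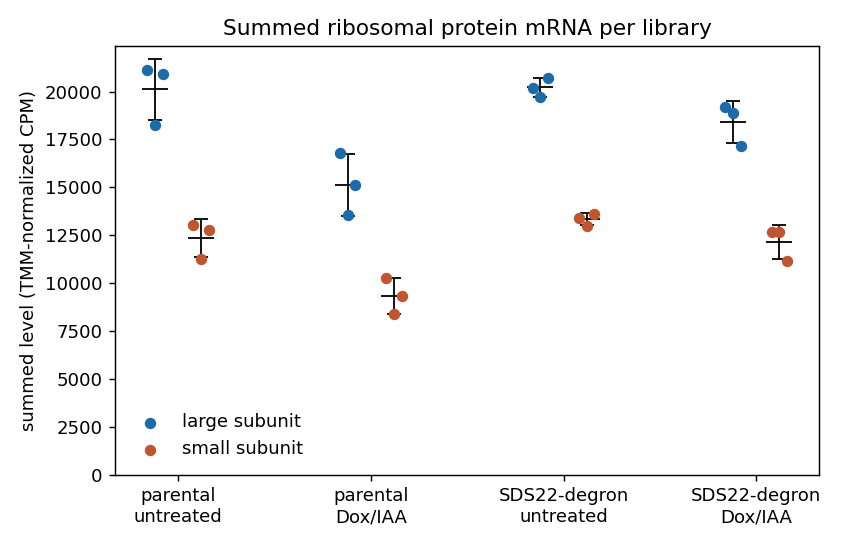
Summed level of the 46 large-subunit genes (blue) and the 31 small-subunit genes (orange) in each library, in TMM-normalized CPM, with the 4 groups along the x axis. Horizontal bars are group means and whiskers 1 SD (n = 3). The treated parental libraries are the lowest for both subunits, at 13549 to 16779 CPM and 8386 to 10247 CPM.

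The ratio of large-subunit to small-subunit reads separated the lines and not the treatments. It was 1.63 ± 0.010 in untreated and 1.62 ± 0.011 in treated parental cells (SD, n = 3). In SDS22-degron cells it was 1.52 ± 0.0084 untreated and 1.52 ± 0.024 treated. The highest SDS22-degron library, at 1.54, was below the lowest parental library, at 1.62. The subunits were spread unequally over chromosomes 1, 3, 8, 15 and 16, whose genes were lower in untreated SDS22-degron cells, as described below. These held 15 large-subunit and 7 small-subunit genes, with medians of -0.14 and -0.15 between the untreated lines. The other chromosomes held 31 and 24, with medians of 0.12 and 0.18. The part of this in the ratio was not tested.

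Per length of exon sequence the genes spanned a wide range of levels. RPL8, a protein of the large-subunit core, was the highest at 686 RPKM (reads scaled by depth and exon length, mean of 12 libraries), and RPS6, the substrate of the S6 kinases, had 478 RPKM. RPL36A at 1.16, RPL21 at 2.56 and RPS26 at 3.36 RPKM were the lowest. Counting bears on this order, since ribosomal protein genes have many processed pseudogenes of near-identical sequence and a read that matches several copies cannot be assigned with certainty. The table holds 1118 pseudogene rows named after 76 of the 77 genes, up to 93 for a single gene, RPL23A. Of the reads on the genes and these rows together, 30.3% lay on the pseudogene rows, with 30.5% in the highest library. In 15 genes the pseudogene rows held over 50% of them, with 95.4% for RPS28 and 82.0% for RPS15A. Among them are genes that recur in the comparisons, RPL7 (80.8%), RPS27 (69.2%), RPL9 (66.3%), RPLP0 (61.6%), RPL7A (58.5%), RPL23A (54.5%), RPL14 (52.6%), RPS27A (52.6%), RPS19 (52.3%) and RPL13 (50.9%). The fold changes of these 15 genes are therefore uncertain, and so are those of RPL17, RPL21, RPL36A, RPL41, RPS26, RPS27 and RPS28, which had a mean under 20 CPM. Adding the pseudogene reads to their genes moved no count of genes given below by over 1.5 times.

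In parental cells, which hold no degron, Dox/IAA lowered nearly the whole set. Of the 77 genes 69 fell and none rose at an adjusted p under 0.05 (edgeR's quasi-likelihood test, Benjamini-Hochberg over all 16657 genes), while 15.7% of all tested genes fell and 15.9% rose. All 77 fold changes were negative, with a median of -0.41 on the log2 scale, or 75.3% of the untreated level, beside 0.0015 over all tested genes. Among the 2459 tested genes with a mean of at least 100 CPM, a level that 63 of the 77 genes reached, the median was -0.05 and 29.4% fell. Both subunits took part, with 41 of 46 large-subunit genes (median -0.41) and 28 of 31 small-subunit genes (median -0.39). In 63 of the 77 genes all treated libraries lay below all untreated ones, which was so for 20.2% of tested genes.

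The largest falls in parental cells came in RPL17, RPL14, RPL7A, RPS12, RPL9 and RPL35. RPL14, a large-subunit protein, had 362, 336 and 379.7 CPM in the untreated and 248, 215 and 231 CPM in the treated parental libraries. The groups were well apart, with a log2 fold change of -0.63 (SE 0.068, adjusted p = 3.18e-06). RPL7A, whose protein sits at the surface of the large subunit, had 396, 344 and 409 CPM untreated and 286, 235 and 259 CPM treated. It changed by -0.56 (SE 0.080, adjusted p = 5.56e-05), and the run at its start was the longest of the sequences shown. RPS12, of the small-subunit head, had 361, 335 and 349 CPM untreated and 263, 227 and 222 CPM treated, a log2 fold change of -0.55 (SE 0.078, adjusted p = 4.99e-05). RPL35, near the exit of the peptide tunnel, changed by -0.53 (adjusted p = 3.69e-05). RPL9, whose annotated start had no C-led run, changed by -0.53 (adjusted p = 7.52e-05). The fall of RPL17 was the largest at -0.68 (SE 0.13, adjusted p = 0.000735), on no more than 17.1 CPM in any untreated parental library. The 8 genes that did not pass were RPL7, RPL21, RPL23A, RPL36A, RPL41, RPS26, RPS27 and RPS28, of which RPL7 and RPL23A were the only ones above 20 CPM.

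Genes with defined places in the ribosome moved like the rest. The stalk proteins that recruit translation factors changed by -0.45 (adjusted p = 0.000289) for RPLP0, -0.34 (adjusted p = 0.00434) for RPLP1 and -0.41 (adjusted p = 0.000226) for RPLP2. RPL5 and RPL11, which form a particle with 5S RNA that can bind MDM2, changed by -0.40 (adjusted p = 0.00152) and -0.41 (adjusted p = 0.000477). RPSA, a small-subunit protein also known as the laminin receptor, changed by -0.38 (adjusted p = 0.000733). RPS27A, made as a fusion with ubiquitin, changed by -0.25 (adjusted p = 0.0183). RPL3, at the peptidyl transferase centre, changed by -0.47 (adjusted p = 0.00184), and RPL10, among the last proteins to join the large subunit, by -0.42 (adjusted p = 0.000764). RPL22 changed by -0.37 (adjusted p = 0.00435), RPL39 in the exit tunnel by -0.32 (adjusted p = 0.00595), RPS3 at the mRNA entry by -0.45 (adjusted p = 0.000716) and RPS4X by -0.42 (adjusted p = 0.00126).

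Within the set the genes with and without the C-led run at an annotated start had similar shares of falls. The split rests on the annotated base and a cut-off of 5 bases, so it need not part TOP from other messages. RPL3, with a run of 4, counts as without it, and RPL9 has a stretch of pyrimidines downstream of its annotated start. In parental cells 42 of the 46 genes with it and 14 of the 16 without it fell, with medians of -0.41 and -0.43. Among other tested protein-coding genes 670 of 9635 had such a run. They had a median of -0.04 and 22.99% of them fell, against 0.03 and 14.1% of those without it. No test was made of these differences.

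**Figure D2:**
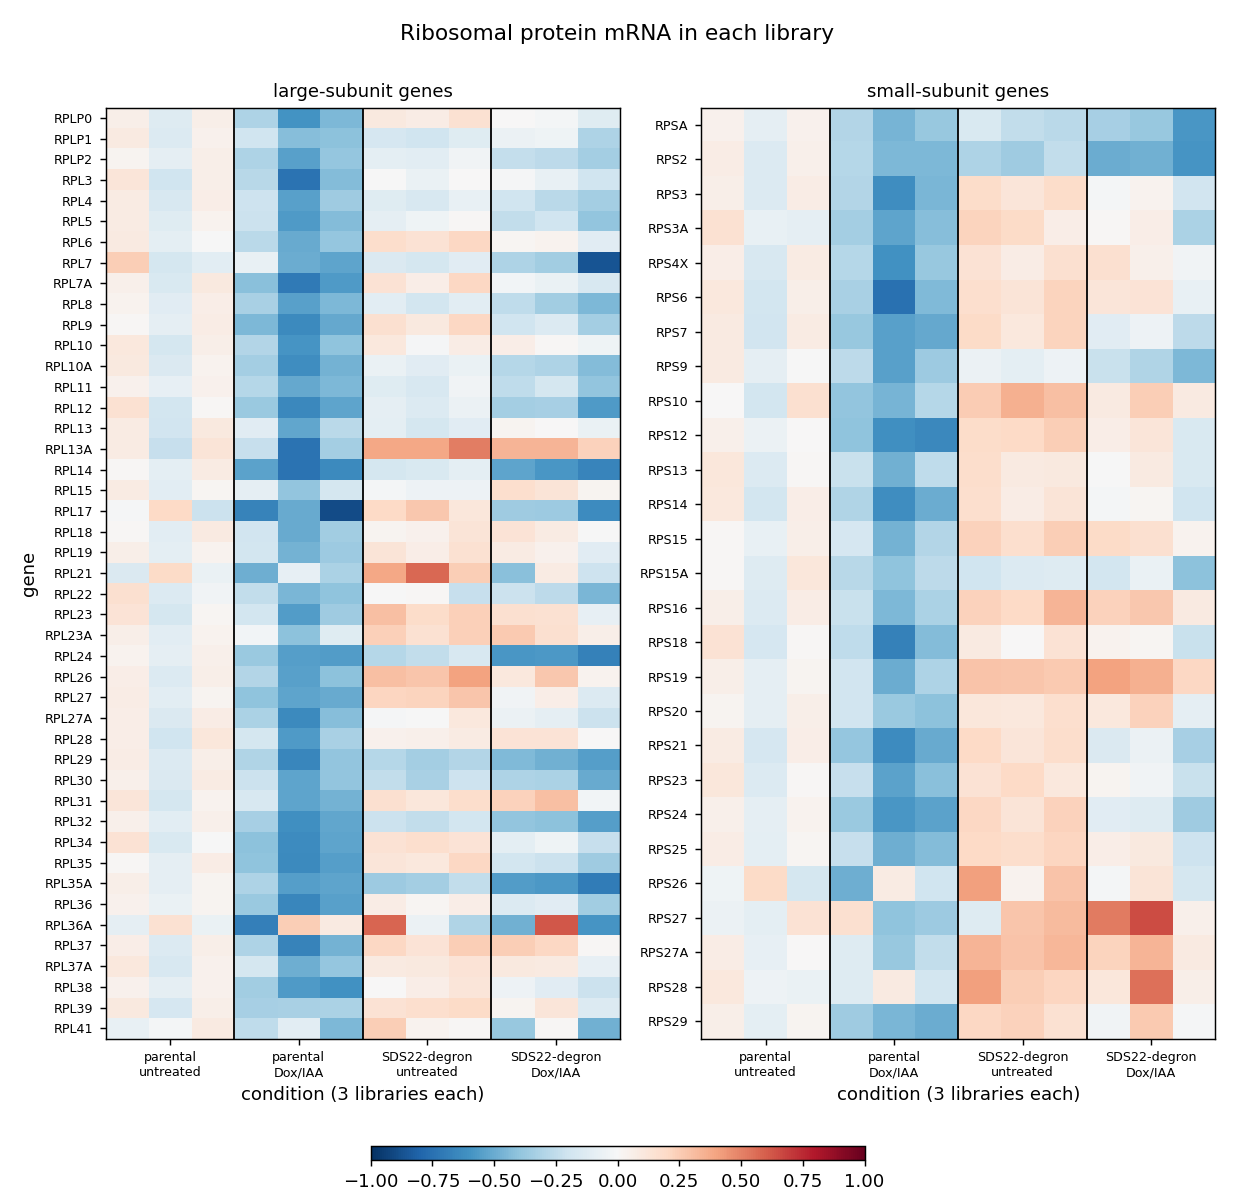
Level of 72 of the 77 genes (rows) in each of the 12 libraries (columns, replicates 1 to 3 within each group), as log2 of the ratio of CPM to the mean of untreated parental cells. Blue is lower and red higher, and the colour scale ends at -1 and 1. The treated parental columns are blue in nearly all rows, and the genes with scattered colours, such as RPL36A and RPS27, are those under 20 CPM.

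The libraries of a group did not lie equally close. Among untreated parental libraries replicate 2 was above its group mean in only 4 of the 77 genes. Among treated parental libraries replicate 1 was above it in 71 genes and replicate 2 in 7. Treated SDS22-degron replicate 3 was above its group mean in none. With each library left out in turn the fall in parental cells kept between 63 and 71 genes, with medians of -0.47 to -0.34.

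In SDS22-degron cells the same treatment lowered fewer of the genes. Dox/IAA lowered 34 and raised none, where 25.5% of all tested genes fell and 26.0% rose. The median was -0.17, or 88.9% of the untreated level, beside 0.0046 over all tested genes and -0.07 over those of at least 100 CPM, of which 39.3% fell and 25.4% rose. The set's share of falling genes, 22 of 46 in the large and 12 of 31 in the small subunit, was thus nearer to the background than in parental cells. The count was 19 with scaling to library size alone. It was 21 without untreated SDS22-degron replicate 1 or replicate 3, and 18 without treated SDS22-degron replicate 3. Groups without overlap were found in 45 genes with treated libraries below and in 2 with treated libraries above, while 29.7% and 30.2% of tested genes did so.

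RPL14 fell here too, from 319, 323 and 335 CPM to 248, 239 and 227 CPM, a log2 fold change of -0.45 (SE 0.068, adjusted p = 2.24e-05). RPL24, a late-joining large-subunit protein, had 183, 187 and 199 CPM untreated and 149, 149 and 139 CPM treated. Its groups did not overlap, and it changed by -0.38 (SE 0.068, adjusted p = 0.000136). RPL35 changed by -0.40 (adjusted p = 0.000153) and RPS24, a small-subunit protein mutated in some cases of Diamond-Blackfan anaemia, by -0.38 (adjusted p = 0.000360). RPL17 and RPL21 had the lowest values, -0.63 (adjusted p = 0.000346) and -0.57 (adjusted p = 0.00617), at under 20 CPM. RPL13A, which besides its place in the ribosome takes part in the GAIT translational control complex, had 1091, 1094 and 1189.8 CPM untreated and 1055, 1054 and 978 CPM treated. That difference of -0.13 missed the threshold (adjusted p = 0.333, 95% interval -0.35 to 0.097). The 9 positive values did not pass, among them RPL15 at 0.15 (adjusted p = 0.110) and RPL13 at 0.12 (adjusted p = 0.296).

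Set side by side, 31 genes fell in both lines, 38 passed in parental cells alone, 3 (RPL7, RPL21 and RPL41) in SDS22-degron cells alone, and 5 in neither. The fall was larger in parental cells in 73 of the 77 genes. The exceptions were RPL21, RPL41, RPL36A and RPS26, all under 20 CPM. The groups behind the responses of the lines are separate libraries, and across the 77 genes the responses had a Pearson r of 0.54 and a Spearman rho of 0.56, as a description of genes that share libraries and depth.

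**Figure D3:**
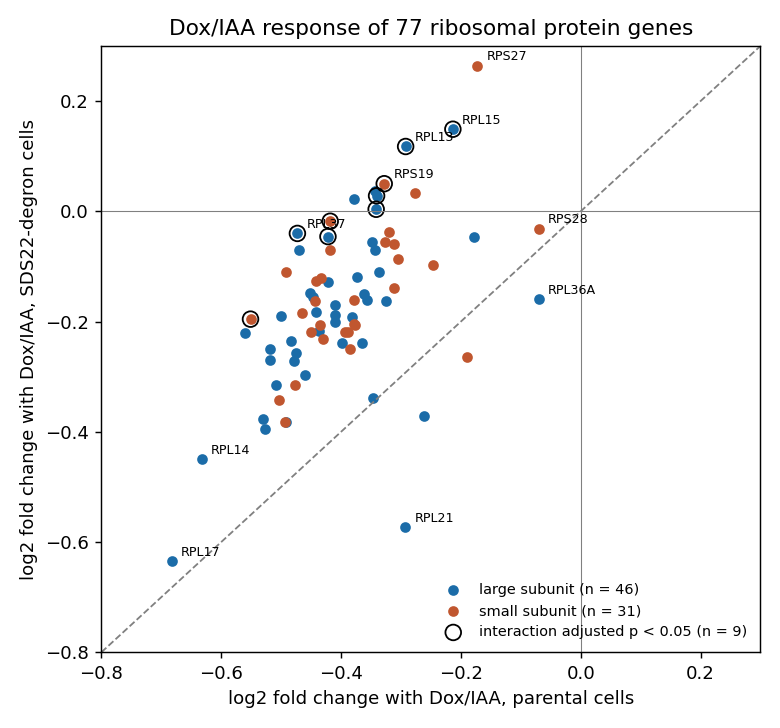
Change of each of the 77 genes with Dox/IAA, as log2 fold change in parental cells (x axis) and SDS22-degron cells (y axis), with large-subunit genes in blue and small-subunit genes in orange. The dashed line marks equal change, and 73 genes lie above it. Black circles mark the 9 genes whose response differed between the lines at an adjusted p under 0.05.

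The difference between the responses was tested gene by gene as an interaction. It was positive in 73 of 77 genes, with a median of 0.23 beside -0.0019 over all tested genes. It passed for 9 genes, all positive, where 6.03% of tested genes passed upward and 8.35% downward. Among genes of at least 100 CPM 8.87% passed upward and 14.7% downward. With the replicate number as a block 21 of the 77 genes passed, all positive, and 3128 of the 16657 tested genes passed in either direction. The upward share of all tested genes was not counted for that fit. Among the 9 were RPL37, RPL13, RPS19, RPL10, RPLP1, RPL15, RPS12 and RPL18. This count was the least stable of all. It was 22 without untreated parental replicate 2 or treated parental replicate 1, and 4 without treated parental replicate 3. It was 2 without treated parental replicate 2 or untreated SDS22-degron replicate 3, and 1 without untreated or treated SDS22-degron replicate 1. It was 0 without untreated parental replicate 1 or 3 or without untreated or treated SDS22-degron replicate 2. The median stayed between 0.18 and 0.28 with each library left out in turn.

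RPL37, a zinc-binding large-subunit protein, showed the largest interaction of the 9. Its level was 420.0, 365 and 417 CPM in untreated and 324, 252 and 289 CPM in treated parental cells. In SDS22-degron cells it was 463, 440.2 and 474 CPM untreated and 474, 462 and 403 CPM treated. The treated parental libraries lay below all others while the SDS22-degron groups overlapped, and the interaction was 0.43 (SE 0.12, adjusted p = 0.0239). RPS19, the small-subunit protein most often mutated in Diamond-Blackfan anaemia, had 485, 436 and 473 CPM and 406, 329 and 375 CPM in untreated and treated parental cells. In SDS22-degron cells it had 566, 565 and 558 CPM untreated and 614, 596 and 537 CPM treated. The SDS22-degron groups again overlapped, and the interaction was 0.38 (SE 0.11, adjusted p = 0.0256). The interaction was 0.41 (adjusted p = 0.0396) for RPL13, 0.38 (adjusted p = 0.0343) for RPL10, 0.37 (adjusted p = 0.0413) for RPLP1, 0.36 (adjusted p = 0.0301) for RPL15, 0.36 (adjusted p = 0.0356) for RPS12 and 0.35 (adjusted p = 0.0431) for RPL18. RPS6 had a value of the same size that missed the threshold, 0.38 (95% interval 0.091 to 0.68, adjusted p = 0.0742).

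Comparison of the treated lines, the contrast in which SDS22 depletion is read against cells that received the same agents, gave higher ribosomal protein mRNA in SDS22-degron cells. Of the 77 genes 51 were higher and none lower, where 21.8% of all tested genes were higher and 23.1% lower. The median was 0.33, or 126% of the treated parental level, beside -0.0056 over all tested genes and -0.06 over those of at least 100 CPM, of which 22.8% were higher and 36.4% lower. It was 27 of 46 in the large (median 0.32) and 24 of 31 in the small subunit (median 0.39). In 49 genes all SDS22-degron libraries were above all parental ones and in 3 below, which was so for 25.7% and 27.2% of tested genes. With each library left out in turn the count was 49 to 54. No gene passed the study's cut-off of an unadjusted p under 0.05 with an absolute log2 fold change above 1, which 6.63% of tested genes passed. None passed it in the other comparisons either, where it took 4.14% (untreated lines), 3.14% (parental response), 7.83% (SDS22-degron response) and 3.60% (interaction) of tested genes. Of the 51 genes 49 had fallen with Dox/IAA in parental cells, and 9 were also higher in untreated SDS22-degron cells. The treated parental libraries enter both contrasts.

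RPL13A had the largest difference, with 709.9, 501 and 658 CPM in treated parental and 1055, 1054 and 978 CPM in treated SDS22-degron cells. The groups did not overlap, and the log2 fold change of 0.72 (SE 0.11, adjusted p = 2.76e-05) was the highest of the 77. RPS19 followed at 0.65 (SE 0.077, adjusted p = 2.08e-06) and RPL37 at 0.63 (SE 0.087, adjusted p = 1.24e-05), from the values given above. RPS6 had 1068, 797 and 983 CPM in treated parental and 1454, 1466 and 1266 CPM in treated SDS22-degron cells. It was 147% of the parental level, a log2 fold change of 0.56 (SE 0.099, adjusted p = 0.000166). RPS12 differed by 0.57 (adjusted p = 1.12e-05), and RPS27, at under 20 CPM, by 0.61 (adjusted p = 0.0231). RPLP0 differed by 0.40 (adjusted p = 0.000345), RPL3 by 0.38 (adjusted p = 0.00545), RPL10 by 0.43 (adjusted p = 0.000273), RPS3 by 0.39 (adjusted p = 0.00107), RPS4X by 0.48 (adjusted p = 0.000186) and RPS27A by 0.47 (adjusted p = 5.99e-05). RPL5 at 0.12 (adjusted p = 0.267), RPL11 at 0.14 (adjusted p = 0.145), RPL22 at 0.059 (adjusted p = 0.625) and RPSA at -0.050 (adjusted p = 0.604) did not pass.

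Without treatment the lines differed in both directions. Between untreated SDS22-degron and parental cells 9 genes were higher and 7 lower, where 13.2% of tested genes were higher and 15% lower. Among tested genes with a mean of at least 100 CPM 12.5% were higher and 23.9% lower. The ribosomal protein genes thus passed no more often than tested genes in general, in either direction. The median was 0.12, beside 0.0034 over all tested genes, and 61 genes did not pass. The balance moved with the scaling, to 15 higher and 5 lower with library size alone and to 17 higher and 4 lower with upper-quartile factors. It was 4 higher without untreated SDS22-degron replicate 3. The lower count was 3 without untreated parental replicate 1 or 3 or untreated SDS22-degron replicate 2, and 4 without untreated SDS22-degron replicate 1.

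These differences followed the chromosomes. The 7 lower genes were RPL35A, RPL29, RPL24, RPSA and RPL32 on chromosome 3, RPS2 on chromosome 16 and RPL30 on chromosome 8. RPL35A, a large-subunit protein, had 348, 314 and 341 CPM in parental and 261, 265 and 281 CPM in SDS22-degron cells untreated. The groups did not overlap, with a log2 fold change of -0.31 (SE 0.072, adjusted p = 0.00301). RPL29 differed by -0.31 (adjusted p = 0.00812), RPS2 by -0.30 (adjusted p = 0.00409), RPL30 by -0.26 (adjusted p = 0.0289), RPL24 by -0.23 (adjusted p = 0.0175) and RPSA by -0.22 (adjusted p = 0.0283). On chromosomes 1, 3, 8, 15 and 16 the median of all tested genes was below -0.1 between the untreated lines, and on chromosome 3 it was -0.27. The 22 ribosomal protein genes there had a median of -0.14, with none higher and 7 lower. The 55 on the other 16 chromosomes had a median of 0.16, with 9 higher and none lower. Across the 77 genes the difference had a Pearson r of 0.75 and a Spearman rho of 0.56 with the median of all genes of the same chromosome. Gene copy number was not measured.

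The higher genes were RPL13A, RPL26, RPS27A, RPS10, RPS19, RPS16, RPL27, RPS15 and RPS12. RPL13A had 882, 709.8 and 912 CPM in parental and 1091, 1094 and 1189.8 CPM in SDS22-degron cells untreated. It was 135% of the parental level, a log2 fold change of 0.43 (SE 0.11, adjusted p = 0.00553). RPL26, which also binds p53 mRNA, had 284, 247 and 283 CPM and 334, 329 and 359 CPM, a log2 fold change of 0.33 (SE 0.080, adjusted p = 0.00436). RPS27A differed by 0.32 (adjusted p = 0.00354), RPS10 by 0.30 (adjusted p = 0.0242), RPS19 by 0.28 (adjusted p = 0.0113) and RPS16 by 0.26 (adjusted p = 0.0184).

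**Figure D4:**
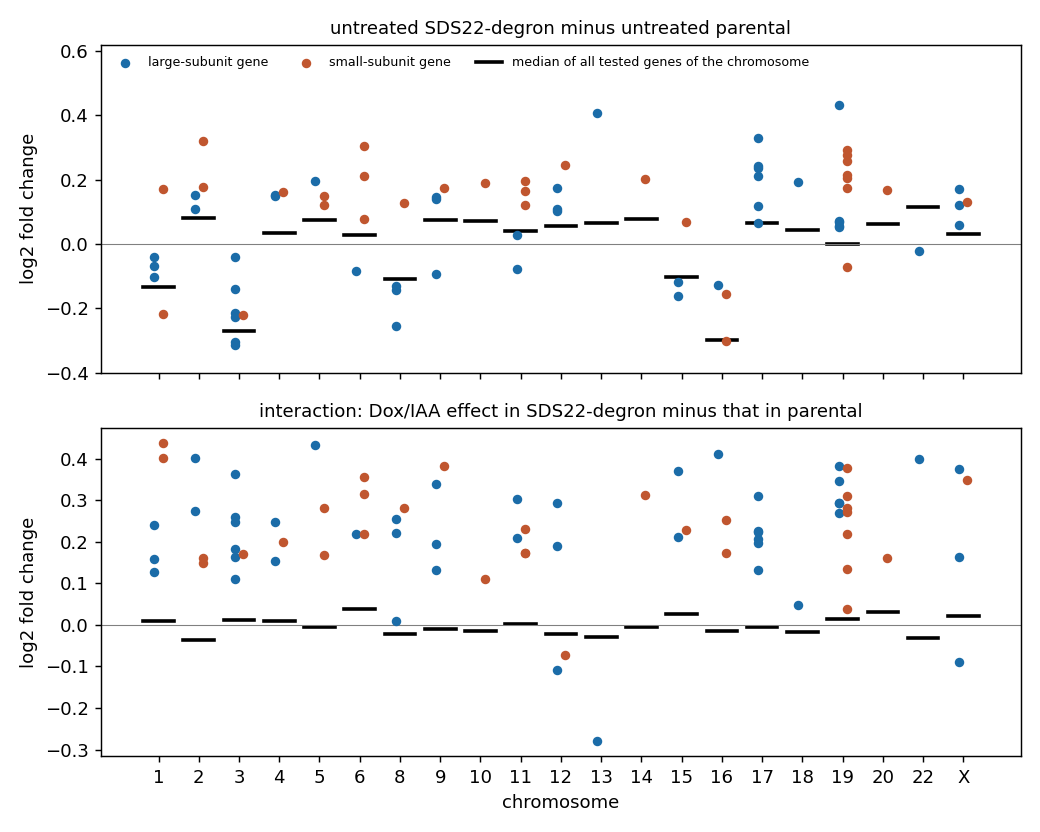
Log2 fold change of each of the 77 genes by chromosome, for the untreated lines (top, SDS22-degron minus parental) and for the interaction (bottom), with large-subunit genes in blue and small-subunit genes in orange. Black bars are the median of all tested genes of the chromosome. In the top panel the genes on chromosomes 3 and 16 lie below 0, and in the bottom panel 73 of the 77 genes lie above it.

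The chromosomes also marked the comparison of the treated lines, with 6 of 22 genes higher on those 5 chromosomes (median 0.09) and 45 of 55 elsewhere (median 0.38). The responses to Dox/IAA, in which a fixed difference of the lines cancels, had similar values on both. In parental cells 20 of 22 and 49 of 55 genes fell, with medians of -0.39 and -0.42. In SDS22-degron cells 11 of 22 and 23 of 55 fell, and the median interaction was 0.23 and 0.22.

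The genes around ribosome production did not all move as the ribosomal proteins did. The counts below can be read against the shares of all tested genes given above for each comparison. Of 10 paralogs and ribosomal protein genes under other names 7 were tested. FAU, whose small-subunit protein is made as a fusion with a ubiquitin-like protein, changed by -0.37 (adjusted p = 0.000335) in parental and -0.23 (adjusted p = 0.00630) in SDS22-degron cells with Dox/IAA. The paralog RPL22L1 had 296, 309.7 and 295 CPM in untreated and 159, 168 and 134 CPM in treated SDS22-degron cells. It changed by -0.97 (adjusted p = 7.54e-09) there and by -0.51 (adjusted p = 4.63e-05) in parental cells, an interaction of -0.46 (adjusted p = 0.00511) in the direction opposite to that of the 9 ribosomal protein genes. RPL7L1 changed by -0.42 (adjusted p = 6.63e-05) in parental and -0.61 (adjusted p = 2.41e-07) in SDS22-degron cells. RPL26L1 changed by -0.39 (adjusted p = 0.00800) in SDS22-degron cells and RPL36AL differed by 0.26 (adjusted p = 0.00335) between the treated lines. RPS27L, a target of p53, had 39.2, 48.0 and 43.0 CPM in treated parental and 74.7, 86.4 and 73.2 CPM in treated SDS22-degron cells, a log2 fold change of 0.85 (SE 0.090, adjusted p = 6.53e-07). Without treatment RPS27L already differed by 0.47 (adjusted p = 0.000731) and RPL36AL by 0.20 (adjusted p = 0.0273).

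A list of other TOP-class genes held mostly translation genes and shares members with the list of chaperones and importins described later. Among its 27 tested genes 23 fell and 1 rose with Dox/IAA in parental cells (median -0.34), and 17 fell and 2 rose in SDS22-degron cells (median -0.23). Between the treated lines 13 were higher and 3 lower. EEF2 fell in parental cells, at -0.48 (adjusted p = 0.00146), and had -0.047 (adjusted p = 0.719) in SDS22-degron cells, with an interaction of 0.43 (adjusted p = 0.0493). TPT1, which encodes the growth-related protein TCTP, differed by 0.55 (adjusted p = 9.69e-05) between the treated lines, and EIF4EBP2, an inhibitor of cap-dependent translation, by 0.38 (adjusted p = 4.97e-05). Between the untreated lines the values were 0.14 (adjusted p = 0.290) and 0.17 (adjusted p = 0.0388). EIF4EBP2 was the gene that rose in parental cells, by 0.24 (adjusted p = 0.00532), and it rose by 0.45 (adjusted p = 5.90e-06) in SDS22-degron cells. The 20 snoRNA host genes, long non-coding RNAs that release small nucleolar RNAs from their introns, held 18 that fell in parental cells (median -0.55) and 11 that fell and 1 that rose in SDS22-degron cells (median -0.38). Their interaction passed upward in 5 and downward in 1. C6orf48, also called SNHG32, had 88.8, 66.6 and 77.8 CPM in treated parental and 205, 200.2 and 173 CPM in treated SDS22-degron cells, a log2 fold change of 1.31 (SE 0.11, adjusted p = 3.52e-08). EPB41L4A-AS1 differed by 1.16 (adjusted p = 1.14e-06) and DANCR by 0.60 (adjusted p = 4.08e-06) in the same comparison. All 3 were higher without treatment too, C6orf48 by 0.49 (adjusted p = 0.00208), EPB41L4A-AS1 by 0.49 (adjusted p = 0.00624) and DANCR by 0.79 (adjusted p = 4.06e-07). The interaction of DANCR was -0.20 (adjusted p = 0.230).

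Ribosome assembly factors fell in both lines and were lower, not higher, between the treated lines. With Dox/IAA 51 of 60 fell in parental cells (median -0.45) and 56 of 60 in SDS22-degron cells (median -0.77), and none rose. Between the treated lines 46 of 60 were lower and none higher (median -0.33), and the interaction was negative and passed in 27. TCOF1, the Treacle protein of the nucleolus, had 228, 260.3 and 235 CPM untreated and 149.8, 175 and 153 CPM treated in parental cells. In SDS22-degron cells it had 207, 204 and 208 CPM untreated and 87.6, 80.1 and 81.2 CPM treated. The treated SDS22-degron libraries were the lowest of all 12, with an interaction of -0.72 (SE 0.10, adjusted p = 0.000156). GNL3, or nucleostemin, differed by -0.75 (adjusted p = 2.47e-08) and NAT10, an RNA acetyltransferase, by -0.68 (adjusted p = 6.49e-08) between the treated lines. Between the untreated lines they already differed by -0.43 (adjusted p = 2.27e-05) and -0.49 (adjusted p = 5.31e-06), and the interaction was -0.32 (adjusted p = 0.0158) and -0.19 (adjusted p = 0.141). Of 39 tested subunits and factors of RNA polymerases I and III, which make ribosomal and transfer RNA, 16 fell in parental cells (median -0.14), and 24 fell and 4 rose in SDS22-degron cells (median -0.29). TAF1A, a subunit of the polymerase I factor SL1, differed by -1.02 (adjusted p = 1.28e-07) between the treated lines, POLR2H by -0.55 (adjusted p = 1.58e-06) and POLR3E by -0.64 (adjusted p = 7.43e-06). The untreated lines already differed in these genes, by -0.46 (adjusted p = 0.000557), -0.19 (adjusted p = 0.0276) and -0.61 (adjusted p = 2.43e-05), and the interaction of POLR3E was -0.034 (adjusted p = 0.885).

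**Figure D5:**
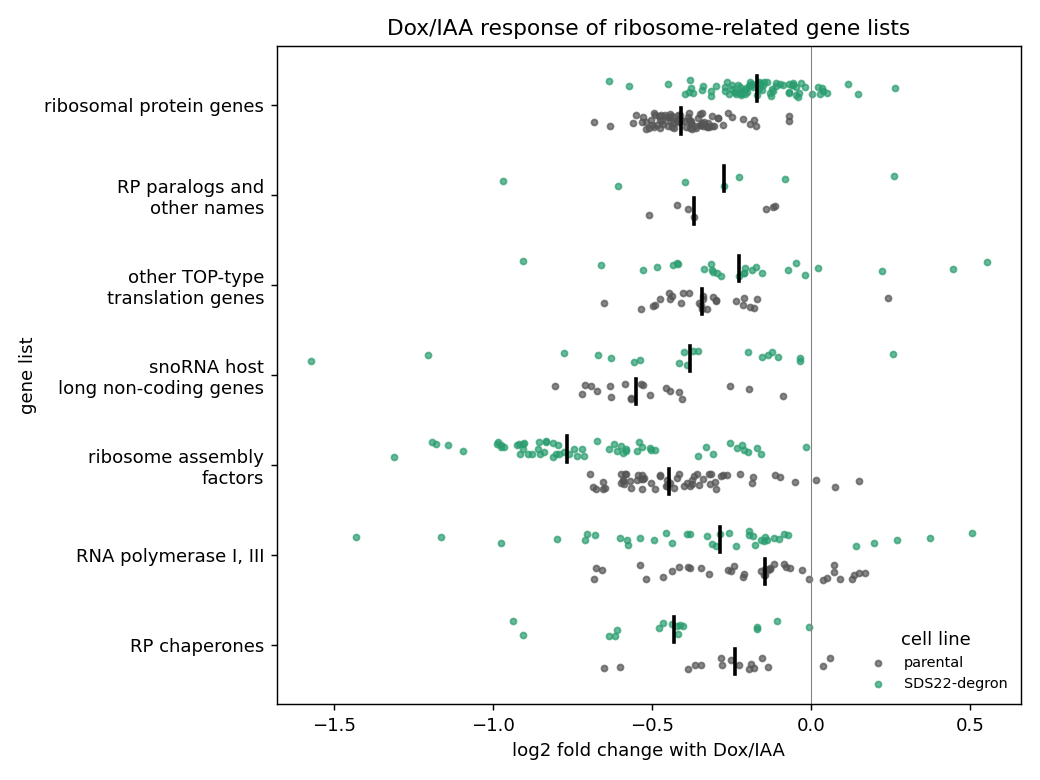
Log2 fold change with Dox/IAA of every tested gene of 7 gene lists, in parental cells (grey) and SDS22-degron cells (green), with 1 point per gene and black bars at the medians. The ribosomal protein genes have their lower median in parental cells (-0.41 against -0.17), and the ribosome assembly factors in SDS22-degron cells (-0.77 against -0.45).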

How the data were processed

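RNA-seq counts of 12 HCT116 libraries were analysed. Per the labels, poly-A RNA was made into stranded libraries and read as 75 bp single reads. The submitters' processing notes name cutadapt 1.15, Bowtie2 2.3.3.1, STAR 2.5.2b, SAMtools 1.5, featureCounts 1.5.3 and GRCh38, and the strand setting of the counting is not given in the sources used here. The authors deposited raw counts per gene with the GC percent of each gene, which the GC correction used. Columns were matched to samples by name. A sample is labelled as a biological replicate, and p-values measure the spread between these 3 libraries per group.

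Counts were normalized by TMM and fitted with edgeR 4.0.16 (limma 3.58.1, R 4.3.3) as 1 mean per group over all 12 libraries, after filterByExpr with a minimum count of 10. The quasi-likelihood test was read at a Benjamini-Hochberg adjusted p under 0.05 over 16657 genes. SE and 95% intervals are on the log2 scale. The biological coefficient of variation was 7.48%. No libraries were identical (chi-square per gene of 2.16 to 9.73 over 12 replicate pairs). Depth was 12133915 to 14657508 reads on genes (median 12662965). The fit was tested on simulated data.

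Titles number the replicates 1 to 3. Deviations of same-numbered libraries correlated above 0.1 in every pair for the treated lines (0.10 to 0.14) and for parental cells (0.12 to 0.25), where the numbers were taken as pairing. For the other comparisons they did not. The reported p-values, SE and counts come from the fit without a block, so they leave the pairing out in all comparisons. The replicate block was run as an alternative. Alternatives included DESeq2 1.42.0, other scalings and filters, and leaving out each library.

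Members and lists were chosen with earlier results of these data known. Genes were named by rule: in each comparison up to 6 highest and 6 lowest members that passed, 17 members with defined roles, the 3 highest and 3 lowest by RPKM, tested paralogs, up to 3 genes per list by p between the treated lines, and PPP1R7. RPL7, RPL15, RPL18, RPL23A, RPS15A, RPL27, RPL32, RPS15 and RPS28 were named after their values were seen. RPL23 and RPS20 were named outside the rule as genes without a matched start. RPKM use the summed exon length. RefSeq starts (GRCh38.p14) were matched by symbol. Values of some genes are not reported here by name.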

Additional observations from a re-analysis of the deposited data

Results flagged for a closer look

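The response to Dox/IAA differed between the lines, by the interaction term of edgeR's quasi-likelihood test at a Benjamini-Hochberg adjusted p under 0.05, in 9 of 77 ribosomal protein genes and in 12 of the genes named from the related lists. Of all tested genes 6.03% passed upward and 8.35% downward. Among those of at least 100 CPM the shares were 8.87% and 14.7%. Except for the paralog, the list genes were named by p between the treated lines, a contrast that shares the treated libraries with the interaction. A positive value means a smaller fall, or a rise, in SDS22-degron cells. For those named here the interaction was 0.43 for RPL37, 0.41 for RPL13, 0.38 for RPS19, 0.38 for RPL10, 0.37 for RPLP1, 0.36 for RPL15, 0.36 for RPS12 and 0.35 for RPL18 on the log2 scale. Of the list genes it was positive for the snoRNA hosts C6orf48 (0.83) and EPB41L4A-AS1 (0.68), and for EEF2 (0.43) and TPT1 (0.42). It was negative for TCOF1 (-0.72), GNL3 (-0.32), TAF1A (-0.56), POLR2H (-0.36), the paralog RPL22L1 (-0.46), and the chaperones and importins GRWD1 (-0.39), IPO5 (-0.34) and IPO9 (-0.50). The number of ribosomal protein genes that passed ranged from 0 to 22 with each library left out in turn.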

How the results depend on the processing

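Of 346 alternatives of the counts and medians 303 stayed within 1.5 times the reported count or within the spread between replicates. The 303 include counts of 0 that stayed at 0. For medians the spread was 0.096 on the log2 scale, near the size of the median of 0.12 between the untreated lines. At the study's cut-off, with a log2 fold change above 1, every count became 0. The 9 genes higher between the untreated lines became 15 with library size alone, 17 with upper-quartile factors and 18 with only the groups compared. The 7 lower genes became 4 with upper-quartile factors and 0 on the other chromosomes alone, an alternative chosen after seeing the data. With Dox/IAA in SDS22-degron cells 1 gene rose with library size alone, GC correction, or only the groups compared, and 19 fell with library size alone. The 9 interactions became 15 by likelihood ratio test, 17 by DESeq2, 21 without the filter and 5 on the other chromosomes. Over all tested genes, in either direction, the interaction passed in 2746 of 16657 by likelihood ratio test and 2398 of 16657 by DESeq2. Without the filter it passed in 2714 of 30524. With each library left out in turn the counts were 49 to 54 (treated lines, higher), 4 to 12 and 3 to 8 (untreated lines, higher and lower), 18 to 35 (SDS22-degron, lower), 63 to 71 (parental, lower) and 0 to 22 (interaction, higher). The replicate block gave 18 genes higher between the untreated lines and 21 interactions, and with GC correction 18, 22 and 1 rising gene in SDS22-degron cells. In these comparisons the samples share only a number, although 12 of 12 libraries correlated best with their own number. In the paired comparisons the block gave 53 genes higher between the treated lines and 71 lower in parental cells, and changed the call of no ribosomal protein gene named by rule and reported here. With the block, of 16657 tested genes 8025 passed in either direction between the treated lines, 5985 in parental cells and 5382 between the untreated lines. The cause of these shifts was not tested. Of 4100 values of 41 named ribosomal protein genes under alternatives 3850 kept the call, 159 lost it and 91 gained it. Direction reversed in 0 values where either fit called the gene. Changes of direction between uncalled values were not counted. Low counts limit the 7 genes under 20 CPM.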

Other observations

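Further lists hold genes that act on ribosomal proteins. Of 16 chaperones and importins 10 fell with Dox/IAA in parental cells (median -0.24) and 13 in SDS22-degron cells (median -0.43), and none rose. IPO5, an importin that carries ribosomal proteins into the nucleus, had 339, 374 and 372 CPM in treated parental and 279.8, 267 and 268 CPM in treated SDS22-degron cells, a log2 fold change of -0.41 (SE 0.063, adjusted p = 3.20e-05) by edgeR's quasi-likelihood test. IPO9 differed by -0.63 (adjusted p = 7.28e-07) and GRWD1, the chaperone of RPL3, by -0.46 (adjusted p = 8.03e-05). Of 19 tested regulators of ribosomal protein synthesis 4 fell and 1 rose in parental cells, 9 fell and 2 rose in SDS22-degron cells, and 7 were lower and 1 higher between the treated lines. MDM2, a p53 target whose product is bound by the RPL5 and RPL11 particle, had 196, 208 and 202 CPM in treated parental and 305, 308 and 273 CPM in treated SDS22-degron cells, a log2 fold change of 0.55 (SE 0.079, adjusted p = 1.74e-05). It was also higher without treatment, by 0.34 (adjusted p = 0.00347). EIF4EBP1, a repressor of translation under mTOR, differed by -0.45 (adjusted p = 0.00122) and CNOT1, the scaffold of the deadenylase complex, by -0.33 (adjusted p = 0.000136). The untreated lines already differed by -0.43 (adjusted p = 0.00218) and -0.32 (adjusted p = 0.000348) in these genes, with interactions of -0.019 (adjusted p = 0.948) and -0.0055 (adjusted p = 0.974).

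Across the 77 genes the interaction rose with the level of the gene, with a Pearson r of 0.59 and a Spearman rho of 0.51 against log2 mean CPM, and had r of 0.24 with log2 exon length and 0.23 with GC content. The low end of this relation holds the 7 genes under 20 CPM, whose fold changes are uncertain. Among them are RPL21, RPL41, RPL36A and RPS26, the only genes with a negative interaction. The correlation without these 7 genes was not computed. The 77 genes share libraries and depth, and no test was made.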
